A study of Mus musculus with 12 samples.

Results

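The B cell antigen receptor signals through a pair of chains that stand beside the membrane immunoglobulin, Cd79a (Ig-alpha) and Cd79b (Ig-beta), and is tuned by surface molecules around it. Described here are 7 genes of that kind, chosen by name among the 17132 genes tested: both signalling chains, the inhibitory co-receptors Cd22 and Cd72, the tetraspanins Cd81 and Cd37, and Ms4a1 (CD20). Their probes were those that carry the gene's current or older symbol on the array. There were 11 such probes, and each gene was read from its brighter one.

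The series compared splenic B cells of C57BL/6 mice that carry the RERTCre fusion, a Cre recombinase switched on by tamoxifen and not limited to B cells, and in which 2 Ebf1 alleles (fl/fl) or, in heterozygous controls, 1 allele (+/fl) can be cut out by it. All mice, controls included, carried the Cre, received 3 mg tamoxifen citrate on 4 consecutive days and were killed on day 10, and the RNA of all groups came from sorted splenic B cells. Cells were resting or stimulated with LPS, a bacterial ligand that activates B cells, for a time and at a dose that the labels do not give. Each of the 4 groups (resting +/fl, resting fl/fl, LPS +/fl and LPS fl/fl) had 3 one-colour Agilent arrays. The labels give no age or sex, name a gate on B220+AA4.1- cells with or without a CD21lo step but not the samples of each, and do not say whether replicates were separate animals. P values therefore reflect how these samples vary, and that variation may be technical.

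When antigen binds the immunoglobulin, kinases phosphorylate the tyrosine-based activation motifs in the tails of Cd79a and Cd79b and so start the signal. Cd22, which binds sialic acid, and Cd72, a lectin-like receptor for CD100, carry inhibitory tyrosine motifs that bring in phosphatases. Cd81 is a tetraspanin found on many cell types, Cd37 is a lymphocyte tetraspanin, and Ms4a1 is the membrane protein targeted by anti-CD20 antibodies. Ebf1 is a transcription factor of the B lineage that was first purified through its binding to the promoter of Cd79a, then called mb-1.

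Because the probes decide what was read, those of Cd79a, Cd22 and Cd72, the genes whose genotypes did not overlap at rest, are shown 5′ to 3′ as the scanner files give them. In Cd22 the capitals mark 18 bases (positions 14 to 31 of the probe) whose codons fit the pattern of an inhibitory tyrosine motif in 1 of the 2 reading frames without stop codons. In Cd72 they mark the 32 bases that both probes share, so these probes do not measure that gene independently.
Cd79a, A_52_P651316: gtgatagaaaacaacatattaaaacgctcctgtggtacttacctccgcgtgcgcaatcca
Cd22, A_51_P448140 (brighter): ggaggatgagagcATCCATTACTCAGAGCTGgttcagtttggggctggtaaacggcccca
Cd22, A_52_P466268 (dimmer): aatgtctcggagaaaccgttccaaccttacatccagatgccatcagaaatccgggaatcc
Cd72, A_52_P14600 (brighter): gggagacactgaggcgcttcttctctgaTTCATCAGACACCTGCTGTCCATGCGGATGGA
Cd72, A_51_P292736 (dimmer): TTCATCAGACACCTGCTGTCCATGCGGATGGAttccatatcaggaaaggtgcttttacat

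On the mm7 build that the file headers name, the Cd79a probe lies at chr7:21688822-21689079 on the plus strand. It is 60 bases long and covers 258 bases of genome, so it joins separate genomic blocks. The brighter Cd22 probe lies in 1 block at chr7:27806351-27806410 on the minus strand, and the dimmer one spans chr7:27815904-27817228. Cd22 is thus read at separate parts of its transcript. The Cd79b probe is at chr11:106420507-106420566 and the Cd81 probe at chr7:139495112-139495171. The brighter probes of Cd72, Ms4a1 and Cd37 are at chr4:43464012-43466156, chr19:10931002-10931061 and chr7:41411214-41411273.

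Levels are given as log2 of the background-subtracted signal minus the array's 75th percentile, so 0 is that percentile and 1 unit is a doubling. They are compared between arrays at 1 probe. Levels of different probes are set beside each other only to name a gene's brighter probe and the brightest of these genes. Changes of different probes are compared, in the test of Cd79a against Cd79b and among nearest genes. A difference is called where limma's adjusted p (Benjamini-Hochberg over all 17132 genes, a fit of the 4 group means over all 12 arrays) is under 0.05. All 11 probes were well above background on all 12 arrays and none was saturated. On the array of LPS fl/fl replicate 2, 83.2% of spots passed as well above background, and 54.4% to 61.4% did so elsewhere. Resting +/fl replicates 1 and 3 read high for macrophage markers. Of 9 B cell markers 8 were measured and all 8 were above background on every array, as were 8 of 14 myeloid and 8 of 9 T cell markers. In bulk RNA, fewer cells of a type and less RNA per cell cannot be told apart.

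**Figure D1:**
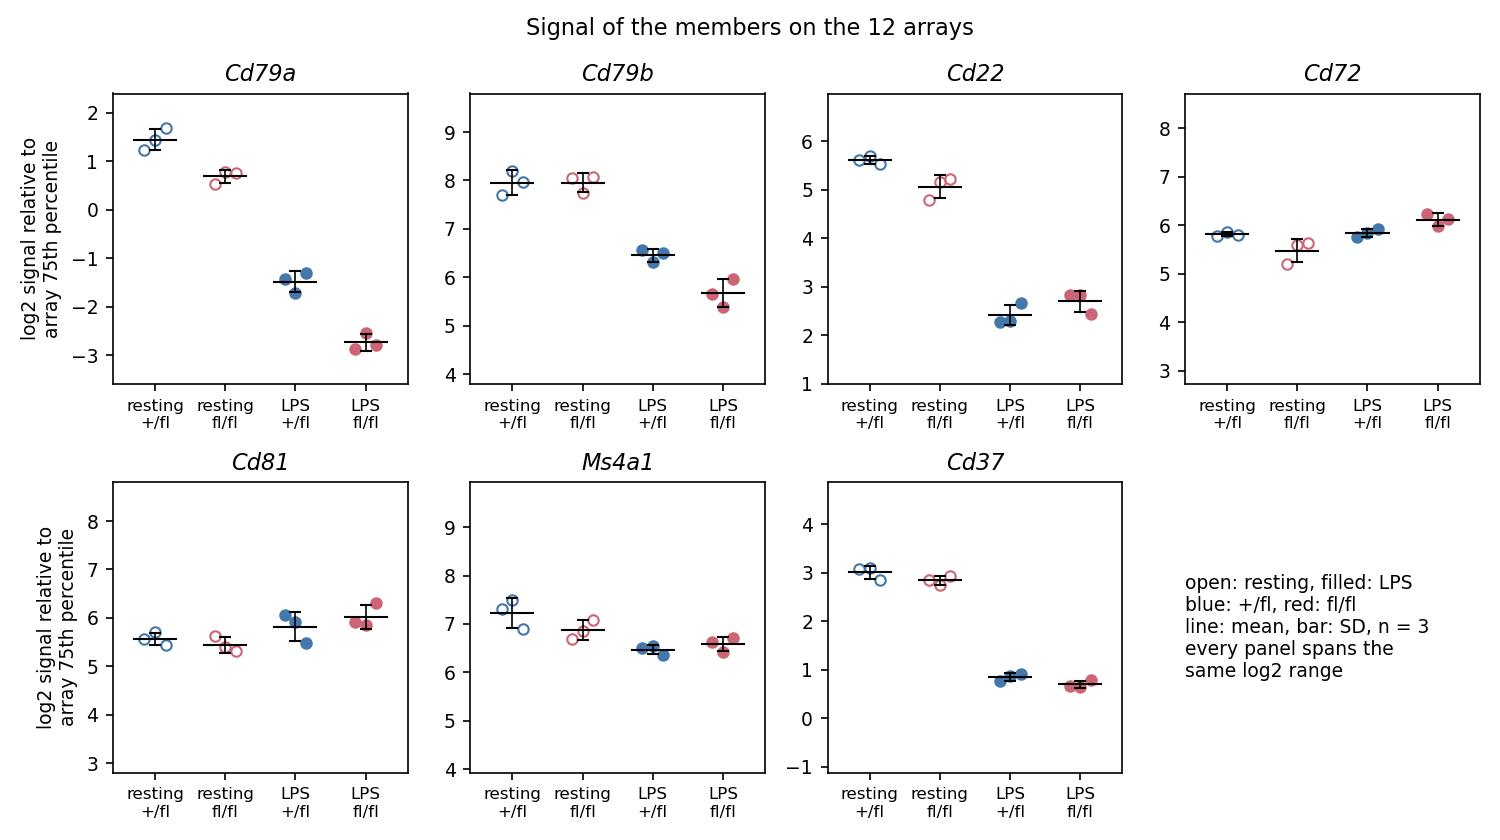
Log2 signal minus that of the 75th percentile (vertical axis) for each of the 7 genes on every array, by group (horizontal axis), with group mean and SD (n = 3); all panels span the same log2 range. Cd79a steps down over all 4 groups from 1.45 to −2.73, Cd79b, Cd22 and Cd37 drop mainly with LPS, and Cd72, Cd81 and Ms4a1 differ least between groups.

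Cd79a was lower in fl/fl than in +/fl cells both at rest and after LPS, and LPS lowered it strongly in both genotypes. At rest the +/fl arrays read 1.23, 1.44 and 1.68 in replicates 1 to 3 and the fl/fl arrays 0.54, 0.78 and 0.76. After LPS it read −1.43, −1.72 and −1.30 in +/fl cells and −2.88, −2.54 and −2.79 in fl/fl cells. The values of the 4 groups do not overlap, and their order is resting +/fl, resting fl/fl, LPS +/fl, LPS fl/fl.

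At rest the fl/fl mean of 0.70 ± 0.13 (SD, n = 3) lay below the +/fl mean of 1.45 ± 0.23 by 1.69-fold (log2 difference −0.75, standard error 0.16, limma adjusted p 0.0229). After LPS the fl/fl mean of −2.73 ± 0.17 lay below −1.48 ± 0.22 by 2.38-fold (−1.25, standard error 0.16, adjusted p 0.0131). Cd79a was the 1 member of 7 called in each of these comparisons. Over all genes 8.71% were called at rest and 1.68% after LPS (4.19% and 0.800% lower).

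Each slide held 1 resting array of each genotype, and within the slides the Cd79a difference at rest was −0.90, −0.44 and −0.92. After LPS only 1 slide held both genotypes, with a difference of −1.36. With slide as a fixed block the LPS difference was −1.39 with an adjusted p of 0.0871. In that fit 5 of all genes were called after LPS, beside 287 without the block. The call at rest ended without resting fl/fl replicate 1 (−0.68, adjusted p 0.081) and without resting +/fl replicate 3 (−0.64, 0.0625). Without both arrays high in macrophage markers, which leaves resting +/fl replicate 2 alone, the difference was −0.74. The call after LPS ended without LPS +/fl replicate 3 (−1.16, 0.0596) and held without the bright LPS fl/fl replicate 2 (−1.35, adjusted p 0.0112).

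LPS lowered Cd79a 7.63-fold in +/fl cells (−2.93, standard error 0.16, limma adjusted p 2.78e-07) and 10.8-fold in fl/fl cells (−3.43, standard error 0.16, adjusted p 1.44e-07). Only 3.14% and 1.15% of all genes had a lower log2 difference in those comparisons. The genotype effects at rest and after LPS differed by −0.50 (standard error 0.22), and this difference, the interaction, was not called (adjusted p 0.247).

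Cd79b, the partner chain, did not share the resting difference. At rest +/fl arrays read 7.70, 8.20 and 7.97 and fl/fl arrays 8.06, 7.74 and 8.07. The groups thus overlap and their means are equal at 7.96 (difference 0.00, standard error 0.18, limma adjusted p 0.999). The resting Cd79b signals were the highest among the 7 genes, and whether they were compressed near the top of the scanner's range was not tested. After LPS Cd79b read 6.56, 6.31 and 6.51 in +/fl and 5.66, 5.39 and 5.97 in fl/fl cells. Here every fl/fl value lies below every +/fl value, and the means are 5.67 ± 0.29 and 6.46 ± 0.13.

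That difference of −0.79 (standard error 0.18, 1.72-fold) had an adjusted p of 0.0631 in limma and was not called. It was −0.59 within the slide that held both genotypes and −0.64 without LPS fl/fl replicate 2. LPS lowered Cd79b 2.82-fold in +/fl cells (−1.50, adjusted p 5.42e-05, or 0.133 with the plain normexp correction) and 4.86-fold in fl/fl cells (−2.28, standard error 0.18, adjusted p 3.28e-06). The interaction was −0.78 (standard error 0.26) with an unadjusted p of 0.012 and an adjusted p of 0.149, so the larger fall in fl/fl cells was not called.

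As both chains sit in the same complex, their changes were also set against each other within arrays. The genotype difference of Cd79a lay below that of Cd79b in both states, by −0.75 at rest and −0.47 after LPS, or −0.61 on average. An exact two-sided permutation test of the genotype labels within resting and within LPS arrays gave p 0.015, where 0.005 is the smallest p that 400 relabellings allow. The relabelling took no account of slide, and the LPS arrays of the genotypes lay mostly on different slides. Without each array in turn the difference lay between −0.73 and −0.52 and the exact p between 0.005 and 0.03. The LPS part moved with the processing. With normexp and capped local background, Cd79a differed between the genotypes after LPS by −0.90 and Cd79b by −0.78. Plain normexp gave −1.29 and −0.31, quantile normalization −1.51 and −0.72, and the deposited values −1.56 and −0.75. Whether a dim and a bright probe respond on the same scale was not tested. The test compares changes and says nothing of the amounts of the chains.

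**Figure D2:**
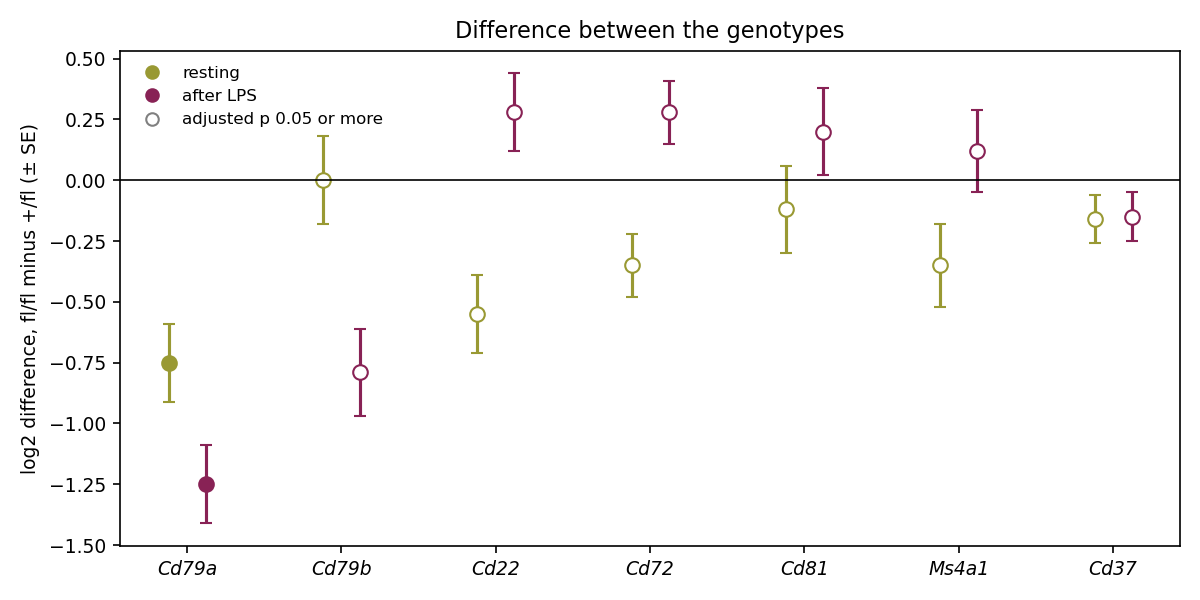
Log2 difference between the genotypes, fl/fl minus +/fl (vertical axis), for each gene at rest and after LPS, with the standard error of the limma fit; filled points have an adjusted p under 0.05. Cd79a is the filled gene in both states (−0.75 and −1.25), Cd79b moves from 0.00 to −0.79, and Cd22, Cd72, Cd81 and Ms4a1, none of them called, lie below 0 at rest and above it after LPS, where scaling by the array median puts all 4 below 0.

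The upstream sequence of Cd79a is shown because this gene carries the called genotype differences and is a classic site of Ebf1 binding. RefSeq's table for GRCm38.p6 held promoters of 5 of the 7 genes (Cd79a, Cd22, Cd72, Cd81 and Cd37). The 250 bases before the Cd79a start, chr7:24897247-24897496 on the plus strand, are printed with the stretch that matches CCCNNGAG on the other strand in capitals.
Cd79a: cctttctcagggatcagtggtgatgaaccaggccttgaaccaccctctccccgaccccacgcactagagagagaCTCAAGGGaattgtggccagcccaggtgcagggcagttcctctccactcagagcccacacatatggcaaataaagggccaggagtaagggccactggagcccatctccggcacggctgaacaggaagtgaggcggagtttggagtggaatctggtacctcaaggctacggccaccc

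The symmetric core of the Ebf1 motif, CCCNNGGG, and the relaxed form CCCNNGAG, chosen after this promoter had been read, were searched on both strands from 250 bases before to 50 bases after each start. The relaxed form stood once in the Cd79a promoter, at −176 to −169. It was in 24.6% of the 32851 promoters of the table. The symmetric core was in 13.7% of them; it stood once in Cd22 (−48 to −41), 2 times in Cd81 (−219 to −212 and −68 to −61) and in none of Cd79a, Cd72 and Cd37. No stretch can match both forms at the same start and strand. Binding was not measured in these files.

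Cd22 fell steeply with LPS and stood lower in resting fl/fl cells at both of its probes, past the threshold at 1 of them. At rest the brighter probe read 5.61, 5.69 and 5.52 on +/fl arrays and 4.79, 5.16 and 5.23 on fl/fl arrays. All fl/fl values are below all +/fl values, and the difference of −0.55 (standard error 0.16, 1.46-fold) had a limma adjusted p of 0.0665. The dimmer probe, further upstream in the transcript, read 0.56, 0.80 and 0.83 against −0.37, 0.08 and 0.08. There the difference was −0.80 (standard error 0.16, 1.74-fold) with an adjusted p of 0.0216 over all probes.

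Within the 3 slides the brighter probe differed by −0.91, −0.45 and −0.29. With the mean over both probes, the filter on all 12 arrays, trended and robust variances or normexp with capped local background, Cd22 passed the threshold at rest (adjusted p 0.0359, 0.042, 0.0308 and 0.0378). After LPS the brighter probe read 2.28, 2.30 and 2.66 in +/fl and 2.83, 2.82 and 2.44 in fl/fl cells. These overlap, and the difference of 0.28 (standard error 0.16, adjusted p 0.338) turned to −0.24 with scaling by the array median.

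LPS lowered Cd22 9.14-fold in +/fl cells (−3.19, standard error 0.16, limma adjusted p 2.22e-07), which was the steepest fall among the 7 genes there. In fl/fl cells it fell 5.14-fold (−2.36, adjusted p 1.39e-06). The interaction was 0.83 (standard error 0.23, unadjusted p 0.00525, adjusted p 0.118) at the brighter probe and 1.19 (standard error 0.23, adjusted p 0.0703 over all probes) at the dimmer one. The order of the groups was resting +/fl, resting fl/fl, then both LPS groups, which overlap.

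**Figure D3:**
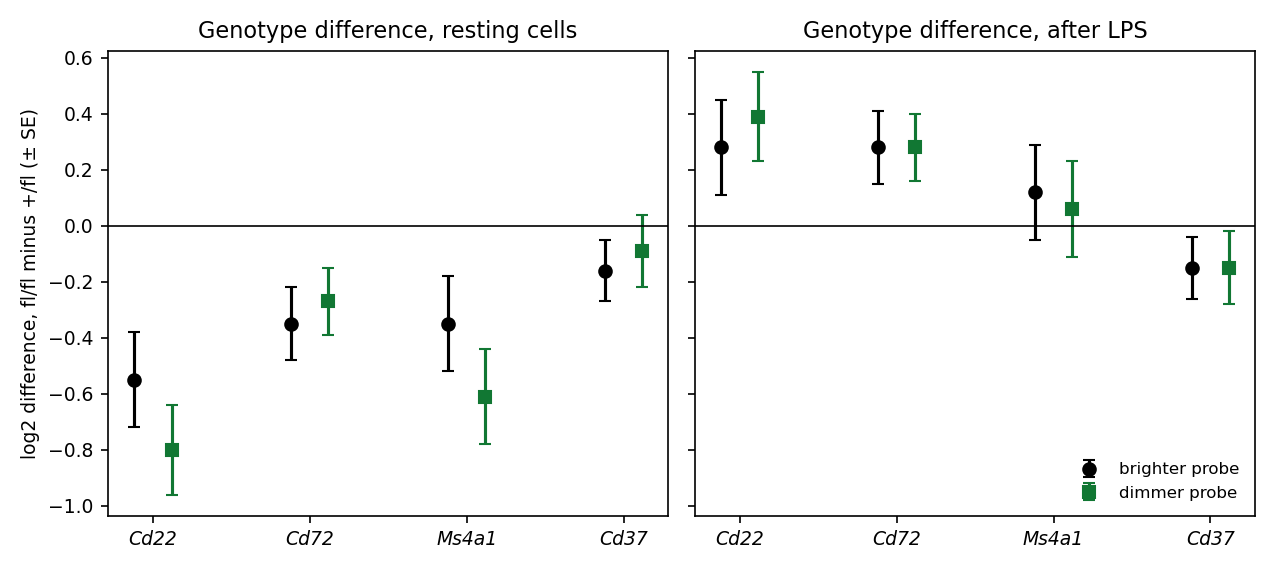
Log2 difference fl/fl minus +/fl (vertical axis, with standard error) at the brighter and the dimmer probe of the 4 genes with a pair of probes, at rest (left) and after LPS (right). The probes of a gene have the same sign in each panel; at rest the dimmer probes of Cd22 (−0.80) and Ms4a1 (−0.61) lie further from 0 than the brighter ones (−0.55 and −0.35).

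Cd72, the other inhibitory receptor, rose with LPS in fl/fl cells and did not pass the test in +/fl cells. It read 5.78, 5.87 and 5.80 on +/fl and 5.20, 5.59 and 5.63 on fl/fl arrays at rest, and 5.75, 5.85 and 5.92 on +/fl and 6.24, 5.98 and 6.13 on fl/fl arrays after LPS. The fl/fl cells are thus lowest at rest and highest after LPS without overlap with +/fl cells in either state, while both +/fl groups overlap.

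The genotype differences were −0.35 at rest (standard error 0.13, limma adjusted p 0.117) and 0.28 after LPS (standard error 0.13, adjusted p 0.24), and the latter turned to −0.24 with scaling by the array median. Within slides the resting values were −0.68, −0.20 and −0.17. In fl/fl cells LPS raised Cd72 1.57-fold (0.65, standard error 0.13, adjusted p 0.00169), a call that ended with scaling by the array median (0.37, adjusted p 0.456) and with the plain normexp correction (1.09, 0.223). In +/fl cells the difference was 0.02 (adjusted p 0.913) and −0.28 with quantile normalization. The interaction of 0.63 (standard error 0.18, unadjusted p 0.00642) had an adjusted p of 0.125. The overlapping second probe gave −0.27 at rest and 0.28 after LPS between the genotypes, LPS responses of 0.68 in fl/fl and 0.13 in +/fl cells, and an interaction of 0.55.

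The 3 remaining genes showed no genotype difference past the threshold. Cd81, the widely expressed tetraspanin, read 5.57, 5.70 and 5.45 on +/fl and 5.63, 5.41 and 5.31 on fl/fl arrays at rest, and after LPS 6.06, 5.92 and 5.48 against 5.92, 5.85 and 6.30. Every neighbouring pair of groups in its order overlaps. Its genotype differences were −0.12 (limma adjusted p 0.706) and 0.20 (adjusted p 0.518; −0.32 with scaling by the array median).

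LPS raised Cd81 1.49-fold in fl/fl cells (0.58, standard error 0.18, adjusted p 0.0191), which lost its call with quantile normalization (0.40, adjusted p 0.0877), with the deposited values (0.42, 0.0803), with the array median (0.30, 0.57), with the plain normexp correction (1.03, 0.187) and without resting fl/fl 2, resting fl/fl 3 or LPS fl/fl 3 (0.55, 0.50 and 0.44). In +/fl cells the value was 0.25 (adjusted p 0.265), and −0.09 with quantile normalization.

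Ms4a1, the CD20 antigen, read 7.31, 7.50 and 6.89 on +/fl and 6.68, 6.86 and 7.09 on fl/fl arrays at rest. After LPS it read 6.50, 6.55 and 6.36 against 6.62, 6.42 and 6.71. The genotypes overlap in both states (differences −0.35, limma adjusted p 0.207, and 0.12, adjusted p 0.708, which was −0.41 with scaling by the array median). At its dimmer probe the resting groups did not overlap, with 6.19, 6.37 and 5.93 for +/fl and 5.21, 5.70 and 5.73 for fl/fl (−0.61, adjusted p 0.0554 over all probes).

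LPS lowered Ms4a1 1.70-fold in +/fl cells (−0.76, standard error 0.17, limma adjusted p 0.00307). With scaling by the array median that became −0.49 (adjusted p 0.321), and with the plain normexp correction −0.73 (0.508). In fl/fl cells it read −0.29 (adjusted p 0.173). The responses differed by 0.47 (standard error 0.24, adjusted p 0.293), so a smaller response in fl/fl cells was not shown.

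Cd37 responded to LPS by like amounts in both genotypes. At rest it read 3.07, 3.11 and 2.86 on +/fl and 2.86, 2.75 and 2.94 on fl/fl arrays, and after LPS 0.76, 0.87 and 0.91 against 0.67, 0.64 and 0.78. The genotypes overlap in both states, and the LPS groups lie far below the resting ones. LPS lowered it 4.48-fold in +/fl cells (−2.17, standard error 0.10, limma adjusted p 1.54e-07) and 4.46-fold in fl/fl cells (−2.16, standard error 0.10, adjusted p 1.66e-07). The interaction was 0.01 (standard error 0.15, adjusted p 0.978). Its second probe gave −2.27 and −2.33.

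**Figure D4:**
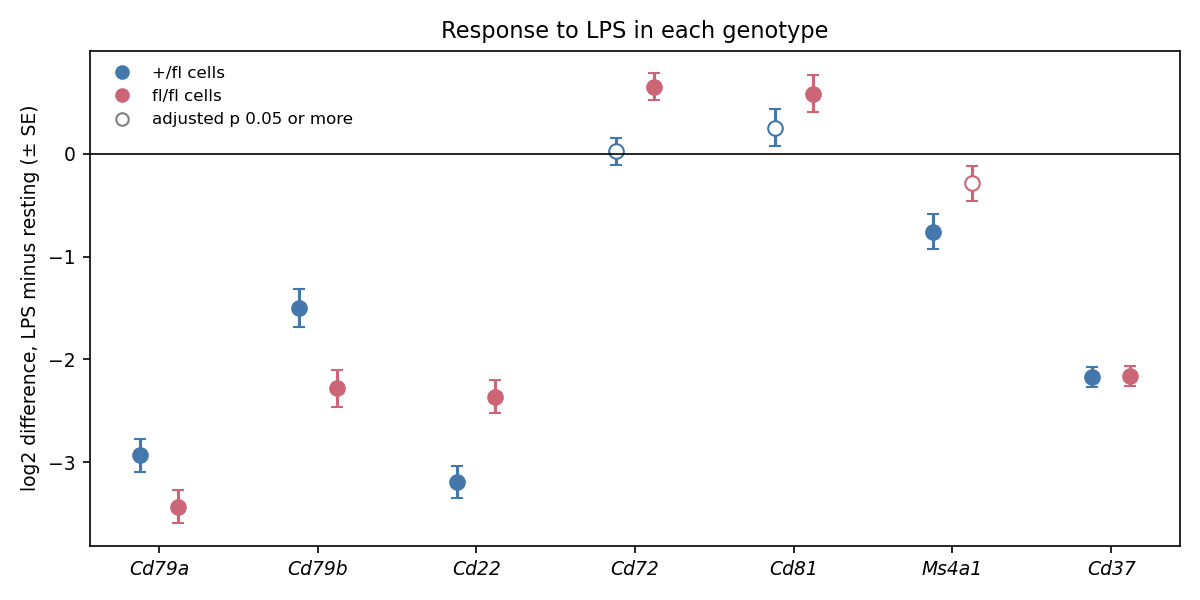
Log2 difference LPS minus resting (vertical axis, with standard error of the limma fit) for each gene in +/fl and in fl/fl cells; filled points have an adjusted p under 0.05. Cd79a, Cd79b, Cd22 and Cd37 are lower after LPS in both genotypes, from −1.50 to −3.43, while Cd72 and Cd81 are higher in fl/fl cells (0.65 and 0.58).

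Across the 7 genes LPS lowered 5 and raised none in +/fl cells, with a median of −1.50 beside −0.03 over all genes. In fl/fl cells it lowered 4 and raised 2, with a median of −2.16 beside 0.06. Over all genes 57.7% and 55.6% were called, and 27.4% and 25.7% were lower. In +/fl cells 5193 of 17132 genes were higher, and in fl/fl cells 29.9%. The LPS and resting values of 5 and 6 of the 7 did not overlap, as for 65.7% and 62.1% of all genes. Between the genotypes the median of the 7 genes was −0.35 at rest and 0.12 after LPS, beside 0.04 over all genes in both. At rest 3 of the 7, Cd79a, Cd22 and Cd72, had non-overlapping genotypes with fl/fl lower, as did 12.7% of all genes (31.1% in either direction). After LPS 3 of the 7 did not overlap, Cd79a and Cd79b lower and Cd72 higher, where 33.4% of all genes did not overlap. No interaction was called by limma for any of the 7 (0.175% of all genes were called); 3 of them, Cd79b, Cd22 and Cd72, had an unadjusted p under 0.05, as did 20.3% of all genes.

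Other genes of the receptor pathway were looked at by lists of names. Of 23 signalling partners 21 did not pass the test between the genotypes at rest, near the share over all genes, of which 8.71% were called. The complement receptor Cr2 was lower in resting fl/fl cells (−2.46, standard error 0.12, limma adjusted p 2.62e-05). Cr2 encodes CD21, the antigen of the CD21lo gate. After LPS Cr2 alone passed (−1.98), where 1.68% of all genes were called.

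With LPS 17 of the 23 partners fell and 1 rose in +/fl cells (median −1.13). In fl/fl cells 18 fell and 1 rose (median −1.01). Over all genes 27.4% and 25.7% were lower, and 5193 and 5121 of 17132 were higher. Plcg2, the phospholipase of the pathway, fell (log2 differences −1.52 and −1.96), as did Lyn, the kinase that phosphorylates Cd79a and Cd22 (−1.58 and −1.69).

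Of 19 inhibitory receptors and phosphatases 15 fell and 2 rose with LPS in +/fl cells, and 12 fell and 1 rose in fl/fl cells. Of all genes 27.4% and 25.7% were lower there, and 5193 and 5121 of 17132 were higher. Siglecg, a relative of Cd22, fell (log2 differences −3.67 and −3.26), and Inpp5d, the lipid phosphatase SHIP1, fell 5.46-fold and 6.05-fold. Between the genotypes Pecam1, an adhesion receptor with inhibitory tyrosine motifs, was lower in resting fl/fl cells (−0.60, limma adjusted p 0.0465). The collagen receptor Lair1 was higher in fl/fl cells after LPS (1.71, standard error 0.33, adjusted p 0.0413). The other 18 did not pass in each state, where 8.71% and 1.68% of all genes were called.

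Of 14 further tetraspanins 7 fell in each genotype with LPS, and 2 rose in +/fl and 3 in fl/fl cells. Among all genes 27.4% fell and 5193 of 17132 rose in +/fl cells, and in fl/fl cells 25.7% fell and 29.9% rose. Tspan32, a tetraspanin of blood cells, fell (−1.80 and −2.14), and Tspan3 rose (1.56 and 1.41). Between the genotypes Tspan4 was lower at rest (−1.40, adjusted p 0.0457 in limma) and Cd9, a tetraspanin of marginal zone B cells, lower after LPS (−1.64, adjusted p 0.0151). Of 13 relatives of Ms4a1 9 passed the filter on dim probes. Ms4a7, a gene of macrophages, was lower in resting fl/fl cells (−1.85, standard error 0.50, adjusted p 0.0483), with −2.45, −2.86 and −3.04 on fl/fl and −0.30, −1.47 and −1.01 on +/fl arrays. With LPS Ms4a6c rose in both genotypes, by 4.68 log2 units in fl/fl cells. In +/fl cells 1 of the 9 rose and 1 fell, and in fl/fl cells 4 rose and 1 fell. Over all 17132 genes 5193 rose and 4696 fell in +/fl cells, and 5121 rose and 4400 fell in fl/fl cells.

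Of 12 textbook Ebf1 target genes beside Cd79a and Cd79b 9 passed the filter. At rest 8 of the 9 did not pass, with a list median of 0.15, where 8.71% of all genes were called. After LPS Vpreb3, a relative of the surrogate light chain, was lower in fl/fl cells (−1.84, standard error 0.26, limma adjusted p 0.0151), with −2.45, −1.78 and −2.25 against −0.47, −0.48 and −0.01. The list median after LPS was −0.32. Ebf1 itself, at its brighter probe, was higher in resting fl/fl cells (0.62, standard error 0.15, adjusted p 0.0351) and did not pass after LPS (0.12, adjusted p 0.657). Where that probe lies relative to the floxed part was not examined, so these values are no check of the deletion.

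The genes whose values over the 12 arrays lay closest to each member, by root mean square difference after centring each gene, are a description that shares the arrays and the LPS step. Cd37 had the closest neighbours, Ttc7, Rab31 and Bin1 (0.09, 0.11 and 0.12 log2 units). For Cd79a they were Cdkl1, Pold4 and Blk, a B cell Src-family kinase, at 0.36 to 0.41, and for Cd79b Cotl1, Trim35 and Tmem163 at 0.20 to 0.23. For Cd22 they were Uap1l1, Lax1, a lymphocyte adaptor, and Noxred1 at 0.22 to 0.23. Cd72 lay nearest Arf4, Pla2g6 and Mapkbp1 at 0.11 to 0.14, and Cd81 nearest Smarce1, Pex16 and Gtf3c1 at 0.16 to 0.17. Ms4a1 lay nearest a probe named NAP046391-1, Smad3 and Nipsnap2 at 0.13 to 0.14. These distances were not scaled by a member's own SD over the 12 arrays, so they do not rank the members by closeness of match. That SD was 1.68 for Cd79a, 1.42 for Cd22, 1.09 for Cd37 and 1 for Cd79b. It was 0.34 for Ms4a1, 0.29 for Cd81 and 0.26 for Cd72. Between the members themselves Cd72 and Cd81 lay closest at 0.27, and Cd79a and Cd81 furthest apart at 1.9. Between these, Cd79b and Cd37 differed by 0.32 and Cd79a and Ms4a1 by 1.45.

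Markers of other cells moved between some of the same arrays. The summed level of the 14 myeloid markers, relative to the 75th percentile, was 108 to 302 in resting +/fl and 87.8 to 136 in resting fl/fl cells, and 53.3 to 137 and 87.3 to 148 after LPS. The 9 T cell markers summed to 18.9 to 42.7 and 18.7 to 21.0 at rest, and 8.95 to 10.8 and 12.5 to 15.7 after LPS. The 6 plasma cell markers summed to 44.9 to 74.2 in resting +/fl and 15.8 to 25.2 in resting fl/fl cells, and 37.7 to 54.4 against 18.9 to 32.2 after LPS. The 8 B cell markers, of which 4 are members, summed to 505 to 643 and 451 to 519 at rest and 257 to 260 and 178 to 224 after LPS. Of 9 erythroid markers 7 were measured, summing to 35.2 to 75.8 and 8.20 to 98.4 at rest and 7.61 to 33.8 and 4.80 to 11.2 after LPS. No marker of these lists was below background on all arrays. Their part in the differences of Cd79a and Cd22 was not tested. Leaving out both myeloid-high arrays leaves resting +/fl replicate 2 alone. The resting differences were then −0.74 for Cd79a and −0.63 for Cd22.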

How the data were processed

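The files used were the deposited scanner output of 12 one-colour Agilent mouse arrays, whose intensity values are Cy3 signals with the background taken off, per the file headers (Feature Extraction 9.5.3.1, probe positions on mm7; the submitters' processing notes name 9.1). The deposited value table is intensity on a linear scale as well, with column medians of 30.89 to 30.92; its columns ranked probes as the scanner values did (Spearman 0.9999 to 1.000), and the sources used here do not name its normalization.

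Of 43379 non-control spots per array, those with outlier marks were left out; 87 probes so missing on any array were not tested. Spots of a probe were averaged on the log2 scale, from which each array's 75th percentile was subtracted. Probes that 3 or more of the 12 arrays marked as well above background were kept and each of 17132 genes was read from its brightest probe. Probes were named by accession, current or older symbol; a probe named Ms4a2, an older symbol of Ms4a1, was left out because its accession belongs to the current Ms4a2. The 4 group means were fitted over 12 arrays with limma 3.58.1 in R 4.3.3 (1.8 prior degrees of freedom); probes were also fitted on their own. In simulated data for the resting comparison (17132 genes) 56% of 100 genes changed by 1 log2 unit and 82% of 100 changed by 2 were recovered. Only those genes were changed there, with independent normal noise. The rates need not hold for the real comparison, where 1493 genes were called. The number of arrays limits the precision.

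Replicate numbers were taken from the sample titles. Deviations of same-numbered samples from their group means correlated by −0.08 to 0.13 over genes. No pairing by number was thus seen, though 3 arrays per group cannot exclude one. A resting and an LPS +/fl array share a number in the sample name. The labels do not say whether these came from the same animal, and the fit treated them as separate. Members, lists and tests were chosen with earlier results of these data known. Named genes were the 7 members, Ebf1, listed genes past the threshold with the 3 smallest p per list and genotype comparison, and the 3 nearest genes of each member; genes named for their LPS response were chosen after their values were seen. Some listed genes are not reported here. Alternatives were those of the closing section; normexp was run with an offset of 50, plainly and with local background capped at 2 times the array's median, and the fit without resting +/fl replicates 1 and 3 was added after the data were seen.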

Additional observations from a re-analysis of the deposited data

How the results depend on the processing

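The count of the 7 genes called at rest was 1 and became 0 with plain normexp. The standard error of Cd79b at rest was 0.55 there, against 0.15 with capped local background. Scaling by the array median, no filter on dim probes, only the 6 arrays compared and an adjusted p of 0.01 gave 0 too. So did leaving out the pair of +/fl arrays with a common number in the sample name. Cd22 was added, making 2, under normexp with capped local background, the filter on all 12 arrays, trended and robust variances and the mean over probes. Over all genes, the 1493 called at rest became 0, 282, 420, 135, 192 and 273 in the former settings, in that order. In the settings that added Cd22 they became 1612, 2071, 2208 and 1282. Without resting +/fl replicates 1 and 3 only replicate 2 of that group is left, so no count is given. After LPS the count of 1 became 0 with plain normexp, slide as a fixed block and only the arrays compared. An adjusted p of 0.01 and leaving out the pair with a common number in the sample name gave 0 too. Cd79b was added, making 2, under normexp with capped local background, the filter on all 12 arrays and trended and robust variances. Over all genes, the 287 called after LPS became 0, 5, 32, 15 and 14 in the former settings, in that order. In the settings that added Cd79b they became 407, 525 and 648. In +/fl cells the count of 5 LPS responses became 3 with plain normexp and 4 with scaling by the array median. Over all genes, 9889 became 1486 and 6928. In fl/fl cells the count of 6 became 4 with both, and 5 with quantile normalization, the deposited values and an adjusted p of 0.01. Over all genes, 9521 became 2397 and 5983, then 9507, 9483 and 7433. Leaving out 1 array gave 0 to 1 at rest, 0 to 1 after LPS, 5 to 5 and 5 to 6 LPS responses in +/fl and fl/fl cells, and 0 interactions. Over all genes it gave 510 to 1632, 16 to 301, 8956 to 10273, 8726 to 9574 and 8 to 142 calls, in that order. The cause was not tested, except that fewer arrays or more genes tested are part of some settings. With the replicate block the counts stayed 1, 1, 5, 6 and 0, and no member's call changed. Over all genes called, that block moved 1493 to 715 at rest and 287 to 42 after LPS. Slide as a fixed block moved them to 1175 at rest and 5 after LPS.

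Uncalled values changed sign as follows. With scaling by the array median, which put the median of all genes at −0.49 after LPS, the LPS genotype differences of Cd22, Cd72, Cd81 and Ms4a1 became −0.24, −0.24, −0.32 and −0.41, the interactions of Cd81, Ms4a1 and Cd37 −0.23, −0.08 and −0.54, and Cd79b at rest 0.03. With quantile normalization and the deposited values the LPS response of +/fl cells became −0.28 and −0.27 for Cd72 and −0.09 and −0.08 for Cd81, and Cd79b at rest 0.08 and 0.06. Plain normexp gave Cd79b 0.04 at rest, Cd37 0.06 after LPS and Ms4a1 a response to LPS of 0.12 in fl/fl cells. The mean over probes gave Cd37 an interaction of −0.03, leaving out the pair gave Cd79b 0.01 at rest, and leaving out resting +/fl 1 and 3 gave Cd72 −0.03 in +/fl cells. Without 1 array Cd79b at rest ranged from −0.13 to 0.12, the Cd37 interaction from −0.04 to 0.09, and Cd72 in +/fl cells from −0.02 to 0.06.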
